A study of Mus musculus with 12 samples.

Results

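Egr1, Egr2 and Egr3, the early growth response transcription factors, and Nab2, a corepressor that binds them, were taken by gene symbol from the RNA of naive mouse CD4 T cells. They are 4 of the 10073 genes in the table, and all 4 were tested. Egr proteins bind DNA through zinc fingers. Their genes are immediate early genes: T cell receptor (TCR) signalling switches them on within minutes, mainly through the kinase ERK, which acts on ternary complex factors such as Elk1 bound with SRF at CArG boxes, and through NFAT. Nab2 docks on Egr proteins and represses their target genes, and Egr proteins in turn switch on Nab2. In T cells Egr2 and Egr3 are known for genes of anergy and tolerance, such as the ubiquitin ligase gene Cblb, and for restraining activation.

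The study sorted naive CD4 T cells by basal TCR signal, read as GFP, and by the surface protein Ly6C. There were 4 populations from each of 3 untreated mice, 12 libraries in all. Every mouse carried the Tg(Nr4a1-EGFP)GY139Gsat transgene, whose GFP is under Nr4a1 control, together with the Foxp3tm1Flv reporter allele, in a C57/BL6 background, and no mouse without them was compared. Cells from spleen and lymph nodes were CD4+, negative for Foxp3-RFP and low in CD44, and received no TCR stimulus. Population A was labelled GFP low and Ly6C positive, B GFP intermediate and Ly6C positive, C GFP intermediate and Ly6C negative, and D GFP high and Ly6C negative, with n = 3 libraries each. Libraries carry the population letter and the mouse number (A1 is mouse 1, population A). All 4 populations of a mouse number came from the same animal, so populations are paired by mouse, and the 3 libraries of a population come from 3 mice. The main fit has no term for the mouse, and a fit with the mouse as a block is given as an alternative. The labels give neither the age nor the sex of the mice. GFP is long-lived and Nr4a1-driven, so the sort used a readout of the same signalling that induces the Egr genes.

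Several libraries went against their labels, so populations are meant below as labelled. Nr4a1 (Nur77), the gene behind the GFP reporter, stood at 57.7, 26.1 and 22.9 RPKM in A1, A2 and A3, and at 36.0, 73.3 and 64.6 in B1, B2 and B3. RPKM is reads per kilobase of gene length per mega (M) reads. Nr4a1 lay between 23.4 and 28.3 RPKM in C and between 58.7 and 67.8 in D, so A1 lay near D, and B1 lay nearer to A2, A3 and C. B2 and B3, labelled GFP intermediate, lay above and inside the range of D, labelled GFP high. C, also labelled GFP intermediate, lay near A2 and A3, labelled GFP low. Nr4a1 transcript thus did not follow the order of the GFP labels over B and C. Ly6c1, which encodes Ly6C, was 59.3 to 67.0 RPKM in C, labelled Ly6C negative, and 37.1 to 50.2 in B, labelled Ly6C positive, and these ranges did not overlap. D held 38.2 to 48.4 and A 58.1 to 72.6 RPKM of Ly6c1. C3 stood apart in another way: the plasma cell markers listed (3 of 6) summed to 836.7 RPKM there and to at most 24.4 elsewhere, and Cd74, the only one of 6 dendritic cell markers listed, was 209.3 RPKM against at most 19.7. Of the T cell markers 5 of 6 were listed, at a summed 1373 to 1501 RPKM, and the 4 NK cell markers were not analysed here. Depth ran from 6.31 M reads (A3) to 9.07 M (C1). Results below are given with and without A1 and B1, and without C3 where it moves them.

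Promoters are shown for the letters through which the TCR route is known to act on immediate early genes. RefSeq windows of GRCm38.p6, from 250 bases before to 50 after a transcript start, are reported here for Egr2 (5 windows) and Nab2 (1 window) only. Egr2 and Nab2 lie on chromosome 10. The first pair of lines gives separate Egr2 starts (chr10:67537316-67537615 and chr10:67537619-67537918, plus strand) and the third gives Nab2 (chr10:127666654-127666953, minus strand), each read 5′ to 3′ along the gene. Capitals mark a CArG box, the SRF motif of CC, then 6 of A or T, then GG, and the letters TGACG, the core of the cyclic AMP response element, on either strand (CGTCA as printed where it lies on the other strand).
Egr2 start 1: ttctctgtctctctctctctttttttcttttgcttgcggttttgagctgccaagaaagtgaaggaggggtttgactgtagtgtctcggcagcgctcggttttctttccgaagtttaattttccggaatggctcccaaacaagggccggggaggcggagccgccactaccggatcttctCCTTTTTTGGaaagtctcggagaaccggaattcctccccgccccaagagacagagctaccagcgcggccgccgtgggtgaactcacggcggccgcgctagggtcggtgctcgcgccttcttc
Egr2 start 2: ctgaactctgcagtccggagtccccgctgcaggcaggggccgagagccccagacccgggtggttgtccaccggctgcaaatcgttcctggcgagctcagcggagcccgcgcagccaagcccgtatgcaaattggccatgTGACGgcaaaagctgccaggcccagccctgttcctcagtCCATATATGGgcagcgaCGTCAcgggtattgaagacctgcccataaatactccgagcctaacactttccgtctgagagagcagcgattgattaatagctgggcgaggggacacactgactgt
Nab2: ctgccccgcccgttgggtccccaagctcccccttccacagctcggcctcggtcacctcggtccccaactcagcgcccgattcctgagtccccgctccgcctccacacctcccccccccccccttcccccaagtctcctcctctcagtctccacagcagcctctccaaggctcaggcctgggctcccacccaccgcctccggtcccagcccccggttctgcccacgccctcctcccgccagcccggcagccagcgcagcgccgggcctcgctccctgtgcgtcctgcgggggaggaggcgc
Both Egr2 windows printed hold a CArG box that begins at base -72 from the start. Of the Egr2 windows not printed, chr10:67535249-67535548 matched none of the motifs searched, and the other two overlap start 2 and hold the same CArG box. Egr2 start 2 also holds TGACG from base -111 and, on the other strand, from base -55, on both sides of its CArG box. A CArG box was in 1.63% of all 32851 mouse windows of this length, and TGACG in 20.8%. The Egr motif was searched as GCGTGGGCG and as GCGNGGGCG, which contains it, and the full element as TGACGTCA, which contains TGACG. All were searched on both strands, and they were in 0.612%, 5.55% and 1.79% of windows. None of these 3 motifs was matched in the windows printed, and the Nab2 window matched none of the 5 motifs. A match is a string of letters and was not tested for binding.

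The 4 genes kept the same order in every library. Egr1 was the highest per gene length, then Nab2, Egr3 and Egr2. Among the 10021 genes tested, 82.0% had a lower mean RPKM than Egr1, 76.7% a lower one than Nab2, 49.4% than Egr3 and 29.8% than Egr2. Egr2 was thus the least abundant, with 76 reads in A3 (95% exact Poisson interval 59.9 to 95.1, counting error only) to 285 in D1.

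Egr2 (Entrez 13654, gene length 3377 bases), a factor of T cell tolerance, had the widest range relative to its level. Its level was 8.23, 4.47 and 3.57 RPKM in A1, A2 and A3, and 4.54, 9.23 and 8.75 in B1, B2 and B3. It was 4.05, 4.66 and 5.73 RPKM in C1, C2 and C3, and 10.2, 9.12 and 8.85 in D1, D2 and D3. The D libraries all lay above the C and the A libraries, while A1 lay above the other two A libraries and B1 below the other two B libraries. All D libraries lay above all C libraries for 14.1% of genes tested, and above all A libraries for 14.1%. Means were 5.42 ± 2.47 RPKM for A, 7.51 ± 2.58 for B, 4.82 ± 0.852 for C and 9.37 ± 0.691 for D (SD, n = 3). In bulk RNA, fewer cells expressing a gene and less RNA per cell cannot be told apart.

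Egr3 (Entrez 13655, 4006 bases), the close relative that overlaps Egr2 in function in T cells, followed the same libraries. It stood at 13.5, 9.75 and 10.4 RPKM in A1, A2 and A3, and at 10.8, 15.6 and 15.5 in B1, B2 and B3. It was 9.77, 10.4 and 10.4 RPKM in C1, C2 and C3, and 15.3, 15.9 and 14.3 in D1, D2 and D3. The C libraries were the most even, and every one lay below every B and every D library. Of genes tested, 8.83% had every C library below every B library, and 14.1% had every D library above every C library. Means were 11.2 ± 1.99 RPKM for A, 14.0 ± 2.72 for B, 10.2 ± 0.376 for C and 15.2 ± 0.790 for D (SD, n = 3).

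Nab2 (Entrez 17937, 2575 bases), the corepressor, was also highest in the D libraries on average. It was 28.7, 23.8 and 18.8 RPKM in A1, A2 and A3, and 29.2, 34.6 and 31.6 in B1, B2 and B3. It was 23.0, 27.6 and 22.6 RPKM in C1, C2 and C3, and 34.2, 36.0 and 36.3 in D1, D2 and D3. Nab2 was the one of the 4 genes for which all B libraries, B1 included, lay above all A libraries, although A1 at 28.7 lay close to B1 at 29.2. Such a separation of B from A held for 13.4% of genes tested. Means were 23.7 ± 4.94 RPKM for A, 31.8 ± 2.71 for B, 24.4 ± 2.79 for C and 35.5 ± 1.11 for D (SD, n = 3).

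Egr1 (Entrez 13653, 3072 bases), the family member that is best known as an immediate early gene across cell types, varied least relative to its level. It was 37.5, 31.1 and 29.9 RPKM in A1, A2 and A3, and 33.0, 41.0 and 40.6 in B1, B2 and B3. It was 30.0, 30.8 and 40.1 RPKM in C1, C2 and C3, and 40.2, 40.1 and 38.5 in D1, D2 and D3. C3 lay inside the D range, so C and D overlapped for Egr1 and not for the other 3 genes (all D libraries lay above all C libraries for 14.1% of genes tested). Means were 32.8 ± 4.11 RPKM for A, 38.2 ± 4.53 for B, 33.6 ± 5.60 for C and 39.6 ± 0.974 for D (SD, n = 3). By mean, all 4 genes were highest in D and next highest in B, and lowest in A and C. D and B overlapped for all 4 genes, and A and C differed by less than the larger of their SDs. B overlapped with the next lower population for Egr1, Egr2 and Egr3, but not for Nab2. For Nab2 that population was C, which lay wholly below B for 8.83% of genes tested.

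**Figure D1:**
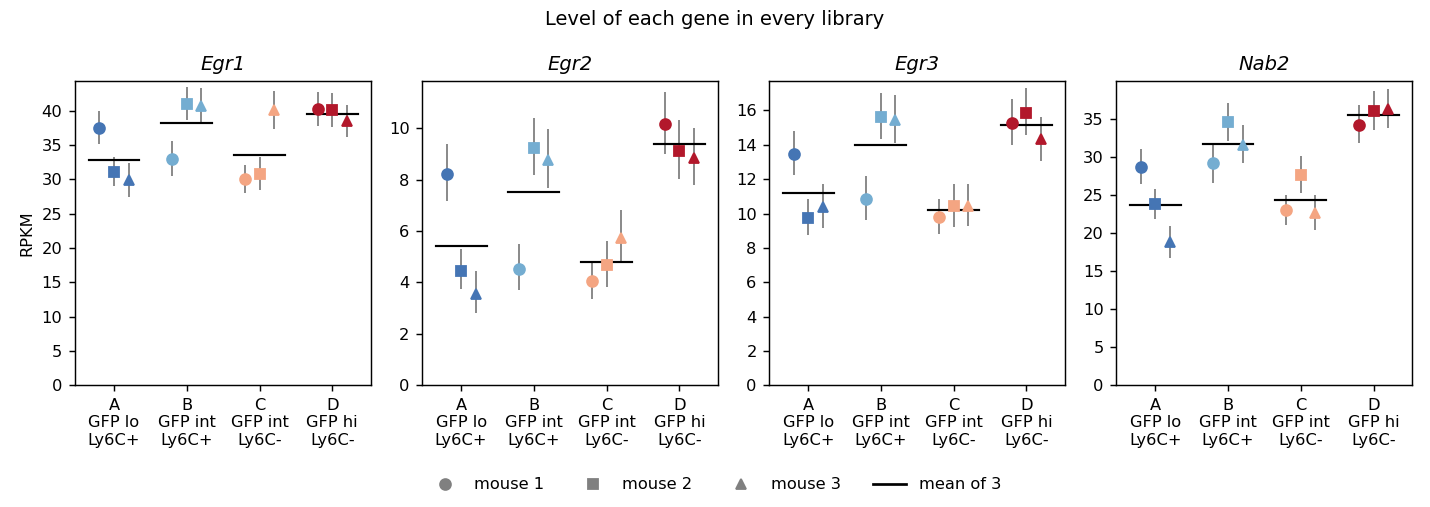
Level in RPKM (vertical axis, from 0) of each gene in each of the 12 libraries, by population A to D, with marker shape for the mouse, a bar for the mean of 3 and a 95% exact Poisson counting interval for each point. Egr2 runs between 3.57 and 10.2 RPKM and Egr1 between 29.9 and 41.0, and A1 and B1 sit apart from the other libraries of A and B.

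Beside Nr4a1, the libraries of mouse 1 kept their odd places in the Egr genes. A1, at 57.7 RPKM of Nr4a1, held 8.23 RPKM of Egr2 and 13.5 of Egr3, just under the D libraries, where Egr2 was 8.85 or more and Egr3 14.3 or more. B1, at 36.0 RPKM of Nr4a1, held 4.54 RPKM of Egr2, inside the range of C, and 10.8 of Egr3. Egr1 broke step with Nr4a1 in C3, where it was 40.1 RPKM at 23.4 RPKM of Nr4a1. Nab2 in B1, at 29.2 RPKM, was above the 28.7 in A1 although Nr4a1 was lower.

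**Figure D2:**
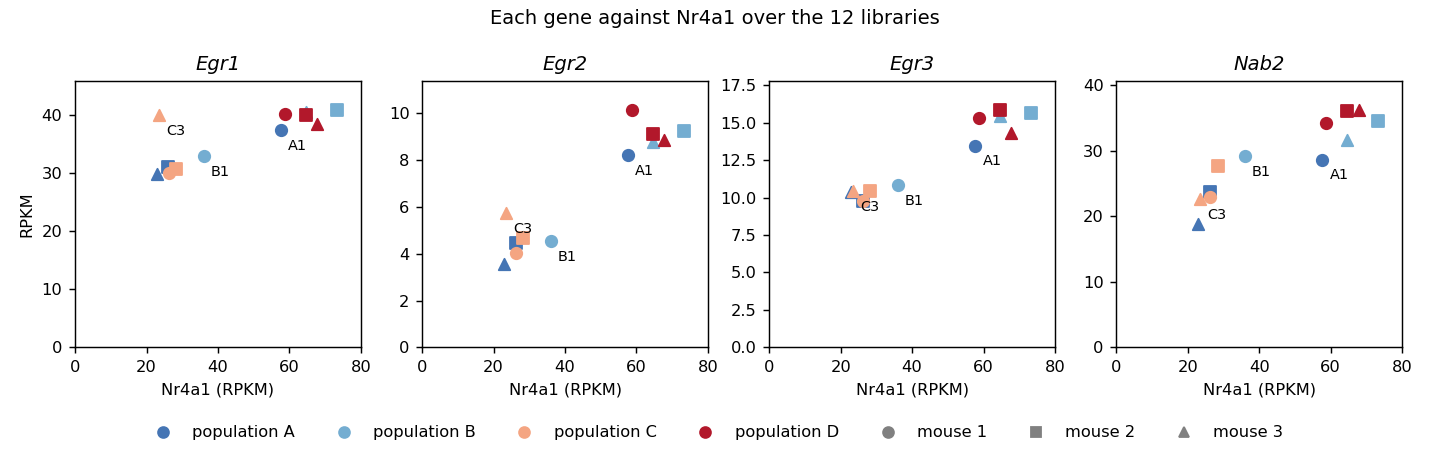
RPKM of each gene (vertical axis) against RPKM of Nr4a1 (horizontal axis) in the 12 libraries, coloured by population with marker shape for the mouse. For Egr2 and Egr3, A1 lies near the D libraries and B1 near the C libraries, and C3 stands off for Egr1 at 40.1 RPKM.

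Comparing D with C asks what differs between cells labelled GFP high and GFP intermediate when both are labelled Ly6C negative. Ly6c1 transcript was not matched, at 38.2 to 48.4 RPKM in D and 59.3 to 67.0 in C. The part of that difference in the D minus C results was not tested. Egr2 was 1.87-fold, Egr3 1.46-fold, Nab2 1.45-fold and Egr1 1.19-fold as high in D, on the log2(RPKM + 0.5) scale used for all fits, which understates changes of low genes. All D libraries lay above all C libraries for Egr2, Egr3 and Nab2, as they did for 14.1% of genes tested. In limma fitted to all 12 libraries with Benjamini-Hochberg adjustment, none of the 4 passed an adjusted p of 0.05, as against 1 gene in all (0.00998%), and 3 of 4 had an unadjusted p under 0.05, as did 18.1% of genes. Their log2 differences there were 0.90 ± 0.28 for Egr2 (± SE, adjusted p = 0.13), 0.55 ± 0.14 for Egr3 (0.106), 0.54 ± 0.13 for Nab2 (0.106) and 0.25 ± 0.12 for Egr1 (0.294). Limma-voom on recovered reads also called none of the 4, with 4 of 4 under an unadjusted p of 0.05, as were 18.6% of genes.

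Fitted to the 6 libraries of D and C alone, the same differences passed for 3 genes. In that limma fit Egr2 rose in D by 0.90 ± 0.12 (adjusted p = 0.00423), Egr3 by 0.55 ± 0.07 (0.00284) and Nab2 by 0.54 ± 0.08 (0.00729), among 4.8% of genes called. Egr1, at 0.25 ± 0.10, did not pass (adjusted p = 0.25). The calls turn on the spread, since the differences are the same in both fits and A1 and B1 enter only the spread. Once A1 and B1 were left out of the 12, Egr2, Egr3 and Nab2 again passed (adjusted p from 0.000295 to 0.00599, 7.63% of genes called) and Egr1 did not (0.144). They also passed without A1 alone (adjusted p 0.0311 to 0.0492, 2.87% of genes called) and without B1 alone (0.0229 to 0.0472, 3.97% of genes). C3, the library with plasma cell marker RNA, moved the value for Egr1: D minus C was 0.42 in mouse 1, 0.38 in mouse 2 and -0.057 in mouse 3. The part of those other cells in Egr1 was not tested. Without C3 alone, Egr1 stood at 0.38 ± 0.10 (adjusted p = 0.175). Without A1, B1 and C3, all 4 passed (8.39% of genes), Egr1 with 0.38 ± 0.05 (limma, adjusted p = 0.000431). These libraries were left out because of their values, and C3 held the most Egr1 of the C libraries. The calls of that fit are therefore not independent of the choice.

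Comparing B with A asks the same of GFP intermediate against GFP low in cells labelled Ly6C positive. Ly6c1 was not matched between B (37.1 to 50.2 RPKM) and A (58.1 to 72.6), and the part of that difference was not tested. Here the mice went apart: B was higher than A in mice 2 and 3 for all 4 genes, while in mouse 1 the log2 difference was -0.79 for Egr2, -0.30 for Egr3, -0.18 for Egr1 and 0.025 for Nab2. In the limma fit of 12 libraries the log2 differences were 0.45 ± 0.28 for Egr2 (adjusted p = 0.341), 0.30 ± 0.14 for Egr3 (0.205), 0.43 ± 0.13 for Nab2 (0.0787) and 0.22 ± 0.12 for Egr1 (0.287). None passed, where 2.23% of genes did. Single libraries moved the Egr2 value to between 0.22 without A3 and 0.77 without A1, and it passed in neither fit. For Nab2 all B libraries were above all A libraries, as for 13.4% of genes. Nab2 and Egr3, 2 of 4, had an unadjusted p under 0.05, as did 23.1% of genes.

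Without A1 and B1, all 4 rose in B in that comparison, among 10.9% of genes called. The log2 differences were then 1.08 ± 0.15 for Egr2 (limma, adjusted p = 0.00154), 0.60 ± 0.08 for Egr3 (0.000866), 0.63 ± 0.12 for Nab2 (0.00773) and 0.42 ± 0.11 for Egr1 (0.0385). A1 and B1 were left out because of their values, so these calls are not independent of that choice. Without A1 alone, Nab2 passed (0.57, adjusted p = 0.0452), where 2.37% of genes did. The mouse as a block left the members uncalled and brought the B and A calls over all genes to 2, against 223 without it. Transcript GC content was 57.3% for Egr1 and 60.1% for Nab2, against a median of 49.4%, and with a trend in GC and length removed the B minus A values were 0.10 for Egr1 and 0.30 for Nab2 (adjusted p 0.325 to 0.747 for the 4).

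**Figure D3:**
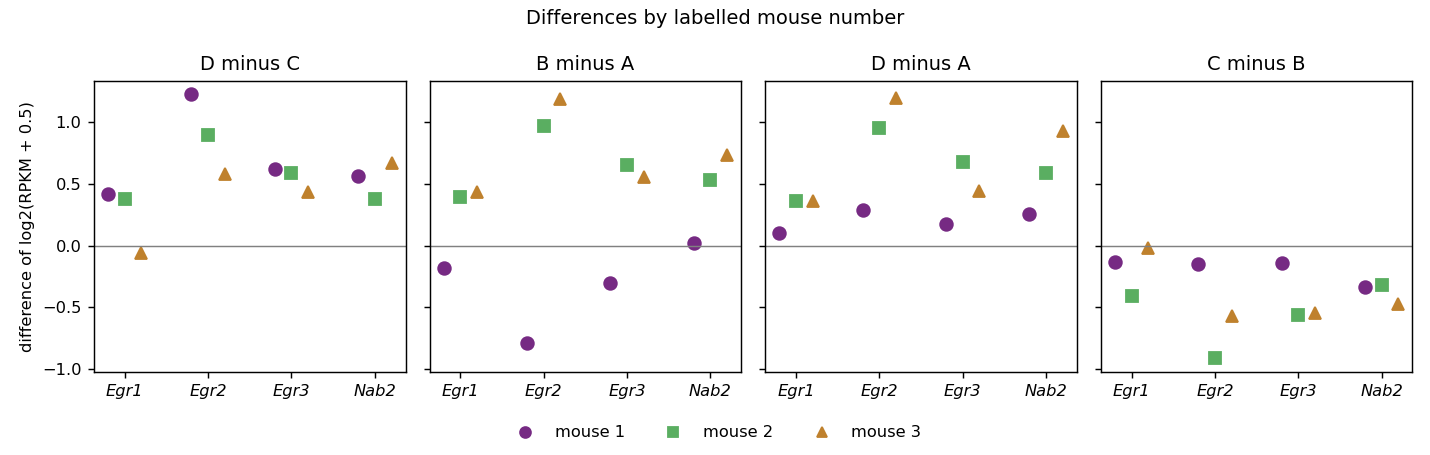
Difference of log2(RPKM + 0.5) within each mouse (vertical axis) for D minus C, B minus A, D minus A and C minus B, with 1 point per mouse and a line at 0. In B minus A, mouse 1 lies at -0.79 for Egr2 while mice 2 and 3 lie at 0.97 and 1.19.

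The ends of the sort gave the same direction in all mice. All 4 genes were higher in D than in A in 3 of 3 mice, and all D libraries lay above all A libraries for each of them, as for 14.1% of genes. The smallest log2 difference within a mouse was 0.099, for Egr1 in mouse 1. How many of all genes kept the same sign in 3 mice was not computed. In the limma fit of 12 libraries, Egr2 was 1.76-fold, Nab2 1.51-fold, Egr3 1.35-fold and Egr1 1.21-fold as high in D, and none passed (adjusted p 0.151 to 0.235, with 0.00998% of genes called). All 4 had an unadjusted p under 0.05, as did 19% of genes. Without A1 alone, Egr2, Egr3 and Nab2 passed (adjusted p 0.0341 to 0.0434), where 3.61% of genes did. Without A1 and B1 all 4 rose in D, among 8.84% of genes called, Egr2 by 1.13 ± 0.13 on the log2 scale (limma, adjusted p = 0.000544) and Egr1 by 0.37 ± 0.10 (0.0457). A1 was left out because of its values and was the highest A library for all 4 genes. The calls without it are therefore not independent of that choice. In the fit of 12 libraries Egr2 had the largest fold and Egr1 the smallest in D minus C and D minus A. In B minus A, Egr2 (0.45) and Nab2 (0.43) differed by less than either SE, and Nab2 was the larger when A2, A3, B2 or B3 was left out.

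Comparing C with B sets Ly6C negative against positive at GFP labelled intermediate, with Ly6c1 itself reversed as above. Nr4a1 was not matched either, at 36.0 to 73.3 RPKM in B and 23.4 to 28.3 in C, without overlap. The part of that difference in the results below was not tested. All 4 were lower in C than in B in 3 of 3 mice, but for Egr1 in mouse 3 the difference was only -0.020 (40.1 against 40.6 RPKM). How many of all genes kept the same sign in 3 mice was not computed. All C libraries lay below all B libraries for Egr3 and Nab2, as for 8.83% of genes, and the groups overlapped for Egr1 and Egr2. In the limma fit of 12 libraries the log2 differences were -0.54 ± 0.28 for Egr2 (adjusted p = 0.412), -0.42 ± 0.14 for Egr3 (0.287), -0.38 ± 0.13 for Nab2 (0.287) and -0.19 ± 0.12 for Egr1 (0.506). None passed, with 0.00998% of genes called and 2 of 4 under an unadjusted p of 0.05, against 13.4% of genes. Without B1 alone, Egr3 passed (-0.58, adjusted p = 0.0317), where 3.85% of genes did. Without A1 and B1, Egr2 fell by 0.85, Egr3 by 0.58 and Nab2 by 0.43 (limma, adjusted p = 0.00349, 0.0005 and 0.0314, 7.74% of genes called), while Egr1 at -0.29 did not pass (0.126). B1 was left out because of its values and was the lowest B library for all 4 genes. The calls without it are therefore not independent of that choice.

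**Figure D4:**
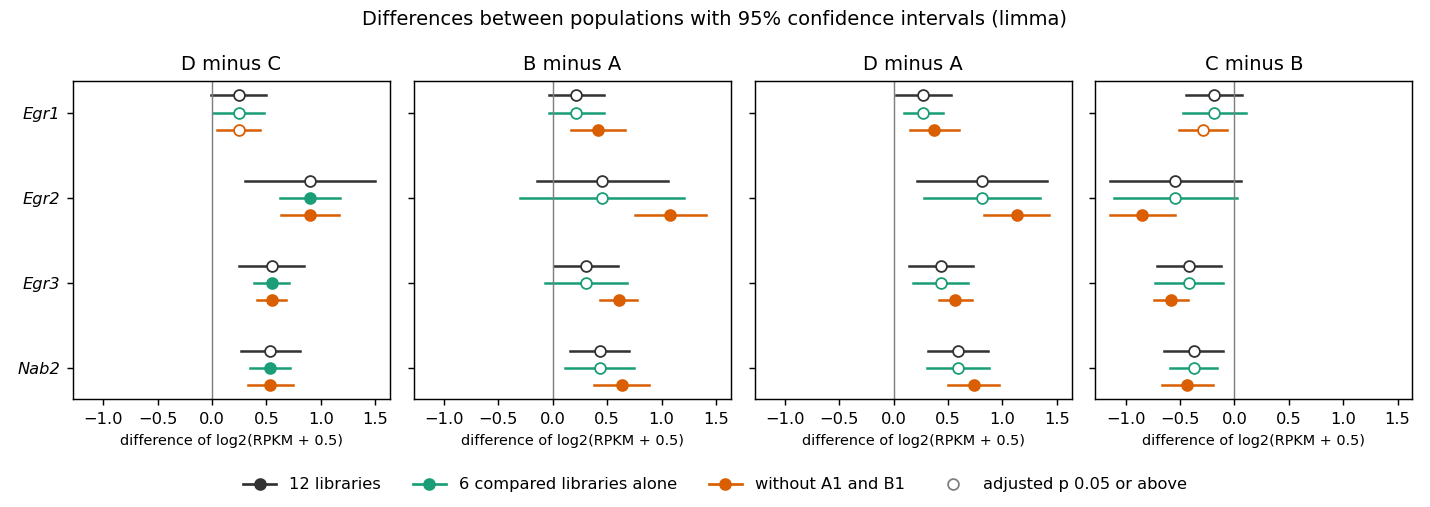
Difference of log2(RPKM + 0.5) between populations (horizontal axis) with its 95% confidence interval for each gene, in limma fits of 12 libraries, of the 6 compared and without A1 and B1, with filled points for an adjusted p under 0.05. The filled points for D minus C belong to Egr2, Egr3 and Nab2, and no point of the fit of 12 libraries is filled.

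The steps between GFP labels were also set against each other. The D minus C difference less the B minus A difference was 0.45 ± 0.39 for Egr2, 0.25 ± 0.19 for Egr3, 0.11 ± 0.18 for Nab2 and 0.029 ± 0.17 for Egr1 in the 12 libraries. None of the 10021 genes passed in limma (0% called, 15% under an unadjusted p of 0.05, adjusted p 0.549 to 0.945 for the 4, none of them under an unadjusted p of 0.05). Without A1 and B1 the signs turned, to between -0.18 for Egr2 and -0.057 for Egr3, with no gene called. Without A1 alone the Egr2 value was 0.13. Over all 4 populations at once, limma's F test gave adjusted p = 0.171 for Egr2, 0.132 for Egr3, 0.116 for Nab2 and 0.291 for Egr1 (0.00998% of genes called). Without B1 alone Egr3 (0.0336) and Nab2 (0.0418) passed this F test, where 4% of genes did, and without A1 alone Nab2 did (0.0418), where 1.54% of genes did.

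Nab1, the other Nab corepressor, had its highest mean in A. It averaged 21.7 ± 2.06 RPKM for A, 19.1 ± 1.61 for B, 19.7 ± 1.57 for C and 18.9 ± 0.591 for D (SD, n = 3). The D minus C difference of Nab1 was -0.05 ± 0.07 in limma on the 6 libraries alone (adjusted p = 0.77). In the limma fit without A1 and B1, Nab1 fell in B against A (-0.32 ± 0.08, adjusted p = 0.0284), where 4.26% of genes were called lower. A1, left out because of its values, was the lowest A library for Nab1, at 19.3 RPKM against 23.2 in A2 and 22.6 in A3. With all 12 libraries the B minus A difference of Nab1 did not pass in limma (-0.18 ± 0.08, adjusted p = 0.216), where 2.23% of genes did. Egr4 and Wt1 were not analysed here.

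Of the genes tied to Egr2 and Egr3 in T cells, more were called higher than lower in D against C when those 6 libraries were fitted alone. The list had 28 genes, chosen from general knowledge with earlier results of these data known, and 21 were measured. In D against C, in limma on the 6 libraries alone, 13 were higher, 1 lower and 7 not called (3.35% and 1.45% of all genes were called higher and lower), with a median log2 difference of 0.49 against 0.013 for all genes tested. Tnfrsf9, a costimulatory receptor of activated T cells, averaged 22.2 ± 2.77 RPKM in D and 1.54 ± 0.143 in C. Ikzf2 (Helios, a factor of regulatory and tolerant T cells, and also one of the regulatory T cell markers given later) averaged 5.70 ± 0.274 RPKM in D and 0.622 ± 0.060 in C. Bcl6, the lineage factor of T follicular helper cells, averaged 19.8 ± 0.927 RPKM in D and 6.93 ± 0.318 in C. Izumo1r (folate receptor 4) averaged 60.1 ± 5.36 RPKM in D and 23.3 ± 1.99 in C. The log2 differences were 3.47 for Tnfrsf9, 2.47 for Ikzf2, 1.45 for Bcl6 and 1.35 for Izumo1r, with limma adjusted p between 2.80e-06 and 7.36e-05. The ubiquitin ligase gene Cblb rose by 0.36 and Socs3, a cytokine feedback inhibitor, fell by 0.43 in D against C, and both were chosen after their values were seen. In the 12 libraries none of the 21 passed for D against C, where 0.00998% of all genes did. Without A1 and B1, 14 were higher and 2 lower, where 5.05% and 2.58% of genes were. For B against A, 13 rose and 2 fell without A1 and B1, where 6.66% and 4.26% of genes did. With them 1, Cdkn1b, fell, where 2.23% of all genes were called in either direction.

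Feedback inhibitors of ERK, several of which ERK signalling is known to induce, were listed as the brakes on the route to the Egr genes. Of 14 listed, 11 were measured, 3 were higher and none lower in D against C in limma on the 6 libraries, with a median of 0.21, where 3.35% of all genes were higher and 1.45% lower. These were Spry1 (log2 difference 2.13), Dusp4 (1.45) and Dusp6 (0.43). The route from the TCR over ERK to SRF had 21 of 21 measured, of which Elk3 (0.62), a ternary complex factor, and Nfatc1 (0.54) were higher and none was lower, with a median of 0.07. The transcripts of Srf and Elk1 did not pass. In the fit of 12 libraries none of the 11 and none of the 21 passed for D against C, where 0.00998% of all genes did.

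Of the other immediate early genes, the Nr4a genes and Rel were called higher in D against C when the 6 libraries were fitted alone. None was called in the fit of 12, where 0.00998% of all genes were. Of 18 listed, 16 were measured. Nr4a1 (1.28), Nr4a2 (1.54), Nr4a3 (1.46) and Rel (0.36) were higher in D against C in limma on the 6 libraries, none was lower (3.35% and 1.45% of all genes were), and the median of the list was -0.12. Fos (-0.02 ± 0.13), Jun (-0.30 ± 0.12) and Junb (-0.26 ± 0.10), subunits of AP-1, did not pass. Without A1 and B1, Jund, Ier2, Myc and Btg2 were called lower in D against C beside the 4 higher genes. In that fit 2.58% of all genes were called lower and 5.05% higher. With C3 also left out, 5 of the list were higher and 1 lower, where 8.39% of all genes were called. The median of the list was then 0.01.

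**Figure D5:**
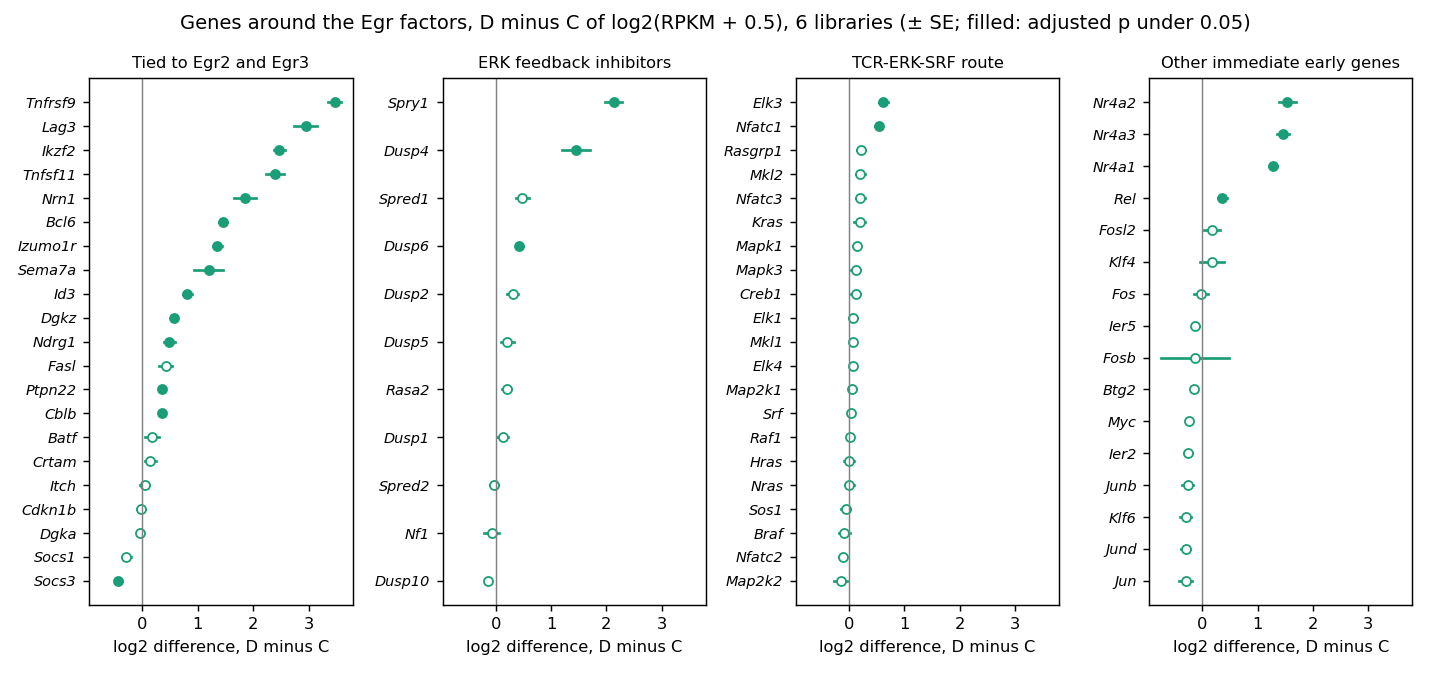
Difference D minus C of log2(RPKM + 0.5) (horizontal axis, ± SE) for each measured gene of 4 lists, from limma on the 6 libraries of D and C, with filled points for an adjusted p under 0.05. Of the genes tied to Egr2 and Egr3, 13 lie above 0 and are filled, while Fos, Jun and Junb lie at or below 0 and are open.

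Genes of other cell states also stood higher in the D libraries, beside the members. The 5 Foxp3 regulatory T cell markers, all listed, summed to 25.5 to 63.2 RPKM for A, 28.8 to 59.4 for B, 24.9 to 28.5 for C and 54.2 to 63.0 for D, with A1 at 63.2 and B1 at 28.8. Foxp3 itself was 3.67 ± 0.381 RPKM in D and 1.37 ± 0.090 in C (SD, n = 3), in cells sorted as negative for its reporter. The memory or effector markers listed (3 of 7, Cd44, Il2rb and Eomes) summed to 13.0 to 44.7 RPKM for A, 15.4 to 50.1 for B, 15.9 to 20.1 for C and 46.6 to 50.6 for D, with A1 at 44.7 and B1 at 15.4. Il2rb (32.0 ± 2.35 RPKM in D and 7.88 ± 0.764 in C) and Eomes (9.41 ± 0.739 in D and 0.344 ± 0.129 in C, SD, n = 3) were higher in every D library than in every C library, as were 14.1% of genes tested. Cd44, the gene of the sort gate, was 6.41 to 7.37 RPKM in D and 7.08 to 12.8 in C, with the highest in C3, and these overlapped. The heat shock and tissue handling markers, all 6 listed, overlapped, with 576.8 to 715.4 RPKM in D and 650.1 to 747.0 in C. Proliferation markers (2 of 4 listed) summed to 24.3 RPKM in C3 and at most 7.18 elsewhere. Their part in the Egr and Nab2 results was not tested.

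The genes whose pattern over the 12 libraries was most like each member were found by Pearson correlation of log2(RPKM + 0.5) among 8845 genes of at least 2 RPKM on average. The libraries share mice and fall into clusters, so the coefficients describe these libraries only. For Egr2 the closest were Ikzf3 (0.985), Ptms (0.984), Lag3 (0.981), Bcl2l11 (0.979) and Cxcr5 (0.975). For Egr3 they were St3gal1 (0.986), Foxn3 (0.986), Igf2r (0.983), Lrmp (0.982) and Hivep3 (0.979). For Nab2 they were Git2 (0.981), Dedd2 (0.971), Tubb5 (0.970), Pkm (0.959) and St3gal2 (0.958). For Egr1 they were Hip1r (0.976), Slc41a1 (0.966), Sh3bp2 (0.965), Chst15 (0.963) and Myo1c (0.962). No gene was in more than 1 of the 4 sets of 5. Nr4a1 ranked 46th for Egr3, 64th for Nab2, 96th for Egr2 and 341st for Egr1.

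The order of levels held in every library, but the ratios between members varied. Egr2 was 0.252, 0.227 and 0.230 of the Egr1 RPKM in D1, D2 and D3, and 0.135, 0.152 and 0.143 in C1, C2 and C3. The Egr2 to Egr1 ratio was higher in every D library than in every C library, and no share over other gene pairs was computed. It was 0.219, 0.144 and 0.119 in A1, A2 and A3, and 0.138, 0.225 and 0.215 in B1, B2 and B3. A1, B2 and B3 thus lay just under the D libraries. Nab2 relative to Egr1 was 0.852 to 0.943 in D and 0.564 to 0.898 in C, which overlapped.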

How the data were processed

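Per the labels' protocols, sorted cells were lysed, RNA was isolated (Quick-RNA MicroPrep) and SMART-seq v4 cDNA was made into NexteraXT libraries. The submitters' processing notes name STAR and the builds mm9 and mm10, with no role. The counting tool, annotation and strand use were not given in the sources used here. The authors deposited 1 table of RPKM values per library with gene lengths, for 10073 genes. Whole reads, within 0.1 read, were recovered from 100.0% of the values examined in every library. They gave depth, Poisson intervals for the 95% level and a voom alternative.

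The 10021 genes averaging 0.5 RPKM or more were tested with limma 3.58.1 (R 4.3.3), trend on, using log2(RPKM + 0.5) of all 12 libraries, no block and Benjamini-Hochberg adjustment at 0.05. Alternatives tried were a pseudocount of 0.1 or 1, a filter of 5 RPKM or none, median rescaling, quantile normalization, mouse as a block, the 6 compared libraries alone, leaving out A1 and B1, leaving out each library, and voom. Chosen after seeing the data were removing a GC and length trend and leaving out A1, B1 and C3. GC was known for 9846 genes (98.3%).

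Members and lists were chosen with earlier results of these data known. Named are the members, up to 4 genes per list by smallest p, and the 5 most like each member; other genes were named after their values were seen. The labels give mouse numbers, so libraries of 1 number come from 1 animal, which is the source of the pairing. Deviations from the population means had a mean correlation of -0.072 over 18 same-numbered pairs, 1 of them over 0.1, against 0.032 over 36 pairs of different mice. Deviations within a population are tied to each other by its mean, and A1 and B1, both mouse 1, went opposite ways in Nr4a1. These correlations therefore cannot show whether libraries of a mouse vary together. The limma step and depth recovery were tested on simulated data. Promoters are RefSeq's. The rest used matplotlib 3.10.9, pandas 2.3.3, scipy 1.17.1 and numpy 2.4.6 in Python 3.11.15.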

Additional observations from a re-analysis of the deposited data

How the results depend on the processing

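No member passed in the fit of 12 libraries, nor with the pseudocounts, filters, rescalings, mouse block, voom or the GC and length trend removed, and the signs held. The mouse (replicate) block and the GC and length removal each brought the B minus A calls to 2, against 223, and changed no other count of genes called by over 1.5 times. With GC and length removed, 1236 genes had an unadjusted p under 0.05 in B minus A, against 2313, and 804 in the difference of steps, against 1507. In B minus A, 1 member was under it with either, against 2. With the 6 compared libraries alone, 481 genes were called for D minus C, 380 for B minus A, 3 for D minus A and 0 for C minus B, and Egr2 (0.90), Egr3 (0.55) and Nab2 (0.54) passed for D minus C.

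Without A1 and B1, 765 genes were called for D minus C, 1094 for B minus A, 886 for D minus A and 776 for C minus B. Passing log2 differences were 0.90 (Egr2), 0.55 (Egr3) and 0.54 (Nab2) in D minus C, 0.42 (Egr1), 1.08 (Egr2), 0.60 (Egr3) and 0.63 (Nab2) in B minus A, 0.37, 1.13, 0.57 and 0.74 in that gene order in D minus A, and -0.85 (Egr2), -0.58 (Egr3) and -0.43 (Nab2) in C minus B. F was 37.3 for Egr2, 47.7 for Egr3 and 22.0 for Nab2. The difference of steps turned to -0.17, -0.18, -0.057 and -0.095 for Egr1, Egr2, Egr3 and Nab2.

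Without A1, B1 and C3, chosen after seeing the data, 841, 1638, 1357 and 873 genes were called in the order above. All members passed: 0.38, 1.02, 0.56 and 0.49 in D minus C (Egr1, Egr2, Egr3, Nab2), 0.42, 1.08, 0.60 and 0.63 in B minus A, 0.37, 1.13, 0.57 and 0.74 in D minus A, and -0.42, -0.97, -0.60 and -0.38 in C minus B. F was 42.4, 59.5, 42.1 and 22.9, and the difference of steps -0.040, -0.055, -0.041 and -0.15.

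Leaving out single libraries gave 1 to 398 calls for D minus C (288 without A1, 398 without B1), 0 to 461 for B minus A (0 without A2, B2 or B3, 2 without A3 or D2, 63 without C2, 68 without D3, 461 without C1 or C3), 1 to 362 for D minus A (362 without A1), 0 to 386 for C minus B (386 without B1, 0 without B2, B3, C1, C2, C3 or D1) and 0 to 261 for the difference of steps (261 without C1). D minus C ranged 0.80 to 1.02 for Egr2, 0.51 to 0.59 for Egr3 and 0.49 to 0.63 for Nab2, passing without A1 or without B1. D minus A ranged 0.58 to 1.13 for Egr2, 0.34 to 0.57 for Egr3 and 0.44 to 0.74 for Nab2, passing without A1. Nab2 in B minus A ranged 0.28 to 0.57, passing without A1, and Egr3 in C minus B -0.58 to -0.33, passing without B1. F ranged 5.21 to 16.1 for Egr3 and 7.90 to 20.2 for Nab2. Without passing, B minus A ranged 0.22 (without A3) to 0.77 (without A1) for Egr2 and 0.21 to 0.47 (without B1) for Egr3, and C minus B -0.85 (without B1) to -0.37 for Egr2 and -0.32 (without C3) to -0.11 (without C1) for Egr1. The difference of steps ranged -0.072 to 0.16 for Egr1, 0.13 (without A1) to 0.68 (without A3) for Egr2, 0.078 (without B1) to 0.33 for Egr3 and -0.036 to 0.26 for Nab2. Of 568 results under alternatives, 501 kept their direction and side of the threshold, 54 passed only under the alternative and 13 reversed, all of them differences of steps that passed in no fit. The cause was not tested. Depth limits Egr2 most, with 76 reads in A3.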
